A study of Homo sapiens with 6 samples.

Results

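The genes described are the receptor chains for interferons and the 4 Janus kinases (JAKs): IFNGR1, IFNGR2, IFNAR1, IFNAR2, IFNLR1, IL10RB, JAK1, JAK2, JAK3 and TYK2. They were chosen by name, as the rows of the deposited count table whose symbol equals 1 of these 10, and all 10 were found among 60662 genes and passed the filter on low counts. RNA was sequenced from DU-145 cells, an established line derived from human prostate cancer. All cells stably carried tet-MUCshRNA, a vector for a tetracycline-inducible hairpin. Its target MUC1 codes for a mucin of the cell surface. The 3 DOX-negative cultures received vehicle and the 3 DOX-positive cultures doxycycline (DOX), which induces the hairpin, for 7 days. All 6 also received 24 hours of the cytokine interferon-gamma (IFN-gamma), at 10 ng/ml. Whether the line is 1 clone or a pool is not given in the sources used here. Unstimulated cells and cells with a control hairpin were not analysed here, so each value compares IFN-gamma-treated cells with and without DOX and hairpin together.

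Interferons act through pairs of receptor chains that have no enzyme activity of their own and rely on bound JAK kinases. IFN-gamma, the type II interferon, binds IFNGR1, which carries JAK1, and recruits IFNGR2, which carries JAK2. The kinases phosphorylate transcription factors of the STAT family, which then enter the nucleus. Type I interferons use IFNAR1 with TYK2 and IFNAR2 with JAK1. Type III interferons use IFNLR1 with JAK1 and IL10RB with TYK2, and IL10RB also serves interleukin-10 and interleukin-22. JAK3 works with the common gamma chain of interleukin receptors and is known mainly from lymphocytes.

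Libraries held between 87739734 and 150921436 reads. Expression is given as CPM, counts relative to library sizes scaled by TMM, a trimmed mean that balances libraries. A gene with 0 reads may lie at up to 3 reads, which was 0.0204 to 0.0328 CPM. That floor covers counting error only. MUC1 went from 20.4, 21.8 and 22.2 CPM in the DOX-negative libraries to 1.53, 1.31 and 1.32 CPM in the DOX-positive ones, which goes with the labels. The epithelial markers KRT8, KRT18, KRT19, EPCAM and CDH1 summed to between 776.8 and 868.3 in DOX-negative and between 1959 and 2054 in DOX-positive libraries, in TPM (a level per gene length relative to the whole library), and their part in the results below was not tested. Pairs of libraries differed by a chi-square per degree of freedom of 6.40 to 20.8 within groups and at least 213.8 across groups. Cultures were in triplicate per the labels, which do not say whether they were grown separately, so p-values cover the spread among these 6 libraries and that spread may be technical.

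Sequence just before the start site is shown for IFNGR1, the member with the smallest p-value, and for IL10RB, whose start faces that of a second transcript which also fell. The sequences are from RefSeq on GRCh38.p14, 5′ to 3′ on each gene's own strand, and end before the first of the gene's start sites, among the RefSeq starts at hand and GENCODE 29. In IFNGR1 capitals mark a match to GGGCGG, the GC box bound by Sp1-type factors, on either strand. In IL10RB they mark the 97 bases between its own start and the start of the divergent transcript IL10RB-DT.
IFNGR1, chr6:137219450-137219635, minus strand: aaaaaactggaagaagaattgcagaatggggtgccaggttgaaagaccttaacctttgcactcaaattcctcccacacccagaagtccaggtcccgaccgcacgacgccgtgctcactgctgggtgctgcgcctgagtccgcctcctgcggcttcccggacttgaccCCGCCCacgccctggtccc
IL10RB, chr21:33266117-33266357, plus strand: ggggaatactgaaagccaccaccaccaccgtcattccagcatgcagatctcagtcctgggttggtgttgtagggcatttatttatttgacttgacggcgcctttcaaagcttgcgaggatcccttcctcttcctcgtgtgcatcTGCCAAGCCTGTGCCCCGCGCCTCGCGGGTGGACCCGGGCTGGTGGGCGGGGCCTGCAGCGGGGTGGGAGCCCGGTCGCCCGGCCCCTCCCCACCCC
The IFNGR1 stretch held 1 GC box match and was 60.2% G or C. RefSeq windows of 300 bases (250 before to 50 after a start) were at hand for 9 members, with 16 starts in all. TTCNNNGAA, the letters of the gamma-activated site, was found in 2 of the 16 windows, those of IFNLR1 and IL10RB, and it occurs in 7.66% of all 35116 such windows. The IL10RB stretch printed above held 0 such matches, so the match in its window lies at least partly past the printed bases. The core of the interferon-stimulated response element, searched as GAAA, any 2 bases and GAAA again, was found in 0 of the 16 and occurs in 3.57% of all windows. The GC box was found in 9 of the 16 windows and in 45.0% of all, CCAAT in 2, of IFNLR1 and TYK2, and in 34.6% of all, and the E box CACGTG in 0 and in 7.26% of all. Both strands were searched. A match here is a match of letters only.

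All 10 genes passed the edgeR adjusted p threshold of 0.05, 4 higher and 6 lower in DOX-positive cells, where IFNAR1, among the 4, turned to -0.02 on the log2 scale with library size alone. Among all 24695 genes tested 56.5% passed, 27.6% higher and 28.9% lower, so a call alone says little in this comparison and the sizes carry the description. CPM values did not overlap between the groups in any of the 10 members, which held for 62.4% of all genes tested. IFNGR1 had the largest change of the 10, larger in absolute log2 terms than 90.6% of genes tested, followed by IL10RB at 83.6%, JAK2 at 72.0% and JAK1 at 71.6%. TYK2 and IFNAR1 changed less than most genes, at 17.2% and 19.0%. With libraries scaled by size alone the median of all genes shifted by -0.14 (log2), and 4689 genes were called higher and 9579 lower, against 6825 and 7132 with TMM. Small changes therefore depend on the scaling, and the members to which this applies are named below. Fewer cells that express a gene and less of its RNA per cell cannot be told apart in such bulk samples.

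**Figure D1:**
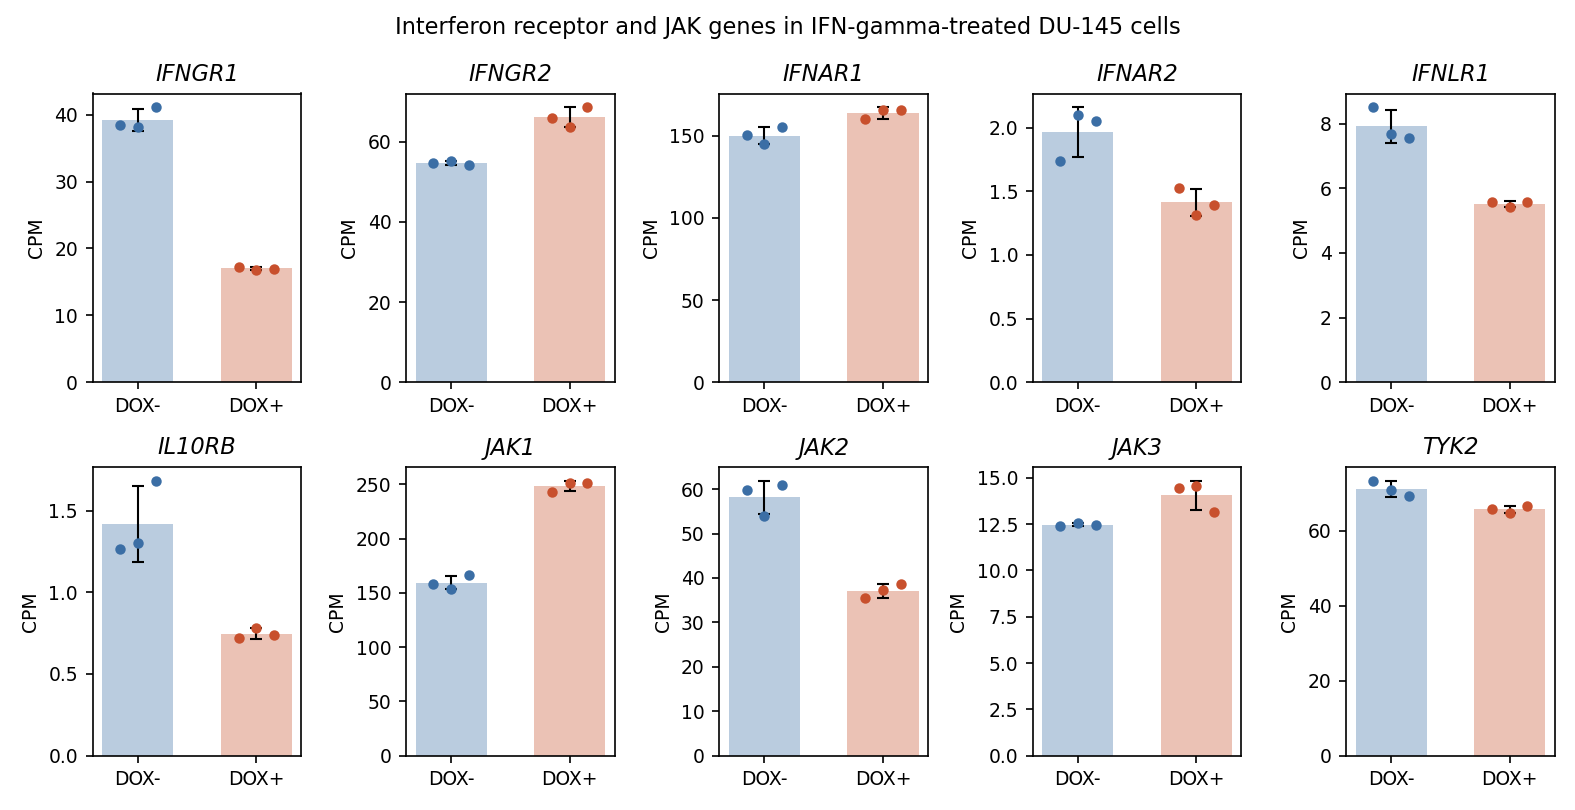
Expression of the 10 genes in CPM (y axes from 0, one scale per gene) in DOX-negative and DOX-positive cells; points are single libraries, bars the mean and error bars the SD of 3 libraries. IFNGR1 falls from about 39.3 to 17.0 CPM and JAK1 rises from about 159.5 to 248.5 CPM, with no overlap of the points.

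**Figure D2:**
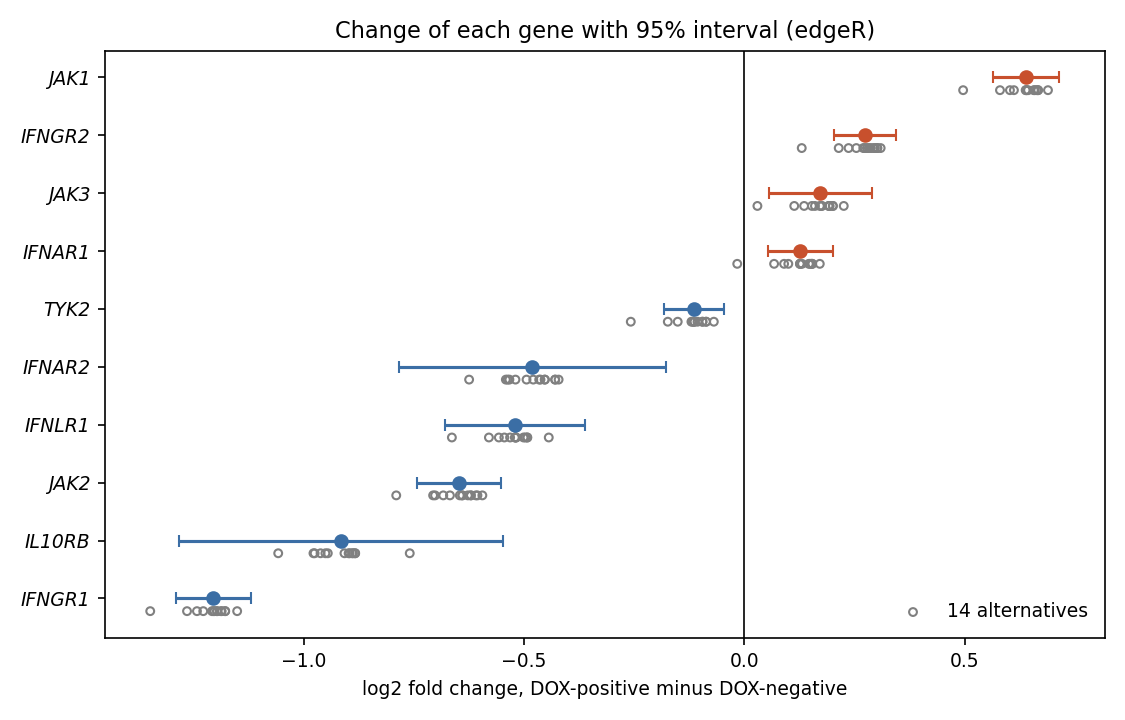
Log2 fold change of each gene, DOX-positive minus DOX-negative (x axis), with its 95% interval from edgeR; open circles are the same value under 14 other settings or with 1 library left out. IFNGR1, IL10RB, JAK2, IFNLR1 and IFNAR2 stay below 0 and JAK1 and IFNGR2 above 0 in all of these, and 1 circle of IFNAR1 lies below 0.

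The 2 chains of the IFN-gamma receptor moved in opposite directions. IFNGR1 (ENSG00000027697.14, chromosome 6, 137197484 to 137219449, minus strand, GRCh38), the chain that binds the ligand, read 38.5, 38.2 and 41.1 CPM in DOX-negative and 17.3, 16.8 and 17.0 CPM in DOX-positive libraries. Every DOX-positive library lay at less than the lowest DOX-negative one, and the 3 DOX-positive values were nearly alike. The fall was 2.31-fold (log2 fold change -1.21, SE 0.04, 95% interval -1.29 to -1.12, edgeR adjusted p = 2.74e-13). IFNGR2 (ENSG00000159128.14, chromosome 21, 33402896 to 33479348, plus strand), the signal-transducing chain, read 54.7, 55.1 and 54.1 CPM in DOX-negative and 66.0, 63.6 and 68.6 CPM in DOX-positive libraries. The groups did not overlap in CPM, and the rise was small at 1.21-fold (log2 fold change 0.27, SE 0.03, edgeR adjusted p = 2.41e-06). It stayed above 0 under every scaling of libraries tried, at 0.13 with library size alone. In TPM the groups overlapped, at 71.3, 66.4 and 68.6 in DOX-negative and 70.4, 70.0 and 74.4 in DOX-positive libraries. Of the exon bases of IFNGR2, 380 (12.8%) lie opposite exons of TMEM50B on the other strand. TMEM50B had a log2 fold change of -0.38, opposite in sign, and the strand setting of the counting is not given in the sources used here.

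The ratio of the 2 chains was read within each library, where the scaling of libraries cancels. Per kilobase of gene length, IFNGR1 stood at 0.636, 0.625 and 0.686 of IFNGR2 in DOX-negative libraries and at 0.236, 0.239 and 0.224 in DOX-positive libraries. The ratio was thus 2.79-fold lower with DOX, and the groups did not overlap. The exact two-sided permutation test of 3 libraries against 3 gave p = 0.10, the smallest it can give, and p = 0.10 after adjustment over the 6 ratios tested.

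Of the type I receptor chains, the highly expressed IFNAR1 changed little and the sparsely expressed IFNAR2 fell. IFNAR1 (ENSG00000142166.13, chromosome 21, 33324477 to 33359862, plus strand), the chain bound to TYK2, read 150.3, 144.9 and 155.3 CPM in DOX-negative and 160.0, 166.0 and 166.0 CPM in DOX-positive libraries. The log2 fold change was 0.13 (SE 0.03, edgeR adjusted p = 0.00532), and it was -0.02 (adjusted p = 0.678) with library size alone and 0.07 (adjusted p = 0.0764) with upper-quartile scaling, so its direction depends on the scaling. IFNAR2 (ENSG00000159110.19, chromosome 21, 33229901 to 33265675, plus strand), the chain bound to JAK1, read 1.74, 2.10 and 2.05 CPM in DOX-negative and 1.53, 1.32 and 1.39 CPM in DOX-positive libraries. These values rest on 138 to 308 reads per library. The groups lay close without overlap, and IFNAR2 fell 1.40-fold (log2 fold change -0.48, SE 0.14, edgeR adjusted p = 0.00868).

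Both chains of the type III receptor fell. IFNLR1 (ENSG00000185436.12, chromosome 1, 24154157 to 24187959, minus strand), the chain particular to type III interferons, read 8.51, 7.69 and 7.56 CPM in DOX-negative and 5.59, 5.41 and 5.57 CPM in DOX-positive libraries. The DOX-positive values were tightly grouped and the fall was 1.43-fold (log2 fold change -0.52, SE 0.07, edgeR adjusted p = 1.47e-05). IL10RB (ENSG00000243646.10, chromosome 21, 33266358 to 33310187, plus strand), the shared chain, read 1.27, 1.30 and 1.68 CPM in DOX-negative and 0.721, 0.782 and 0.737 CPM in DOX-positive libraries. DOX-negative replicate 3 was the highest of the 6. IL10RB fell 1.89-fold (log2 fold change -0.92, SE 0.17, edgeR adjusted p = 0.000258), on 73 to 191 reads per library.

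The levels of IFNAR2 and IL10RB need care because another annotated gene runs across both. In GENCODE 29 the readthrough gene AP000295.1 shares its strand with them and covers 44.2% of the exon bases of IFNAR2 and 38.1% of those of IL10RB. Of the coding bases it covers 86.9% in IFNAR2 and 80.8% in IL10RB. The deposited table lists AP000295.1 with 0 reads in each of the 6 libraries. How reads in shared exons were counted is not given in the sources used here, and the part of this overlap in the low counts was not tested. IL10RB-DT, a transcript that starts beside IL10RB and runs the other way into IFNAR2, raises the covered share of IFNAR2 exon bases to 83.2% if strand is ignored. The other 8 members shared 0 exon bases with another gene on their own strand.

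JAK1 rose and JAK2 fell, so the 2 kinases of the IFN-gamma receptor also moved apart. JAK1 (ENSG00000162434.13, chromosome 1, 64833229 to 64966504, minus strand), which serves all 3 interferon receptor types, read 158.6, 153.8 and 166.1 CPM in DOX-negative and 243.0, 251.7 and 250.9 CPM in DOX-positive libraries. The lowest DOX-positive library was far above the highest DOX-negative one, and the rise was 1.56-fold (log2 fold change 0.64, SE 0.04, edgeR adjusted p = 1.43e-10). JAK2 (ENSG00000096968.13, chromosome 9, 4984390 to 5128183, plus strand), the partner of IFNGR2, read 59.7, 53.9 and 60.9 CPM in DOX-negative and 35.5, 37.2 and 38.6 CPM in DOX-positive libraries. Here every DOX-positive value lay under every DOX-negative one, and the fall was 1.57-fold (log2 fold change -0.65, SE 0.04, edgeR adjusted p = 2.43e-09).

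The other two kinases changed little. TYK2 (ENSG00000105397.14, chromosome 19, 10350529 to 10380676, minus strand), the kinase of IFNAR1 and IL10RB, read 73.3, 70.8 and 69.2 CPM in DOX-negative and 65.7, 64.7 and 66.7 CPM in DOX-positive libraries. Its log2 fold change was -0.11 (SE 0.03, edgeR adjusted p = 0.00599). The call was lost without DOX-negative replicate 1 (-0.07, adjusted p = 0.158), without DOX-positive replicate 2 (-0.09, adjusted p = 0.0630) and with DESeq2 size factors (-0.09, adjusted p = 0.0753), in a range of adjusted p from 3.17e-06 to 0.158 over 14 alternatives. JAK3 (ENSG00000105639.19, chromosome 19, 17824780 to 17848071, minus strand) read 12.4, 12.6 and 12.5 CPM in DOX-negative and 14.5, 14.6 and 13.1 CPM in DOX-positive libraries. Its log2 fold change was 0.17 (SE 0.06, edgeR adjusted p = 0.0138), and the call was lost without DOX-positive replicate 2 (adjusted p = 0.0595), with upper-quartile scaling (0.11, adjusted p = 0.0994) and with library size alone (0.03, adjusted p = 0.677), in a range from 0.00390 to 0.677.

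Markers of leukocytes and blood, where JAK3 is best known, were low, and the 3 that could be tested changed with DOX, in both directions. Of 10 such markers, CD3E, MS4A1 and HBB had 0 reads in all 6 libraries, and the mean of PTPRC, which encodes CD45, was 0.00728 CPM in DOX-negative and 0.0303 CPM in DOX-positive cells, near the level of 3 reads. Those that passed the filter were CD14, CD68 and ITGAM, all 3 of them called. CD14, a monocyte receptor, fell 3.58-fold from 1.02 ± 0.0562 to 0.286 ± 0.0369 CPM (SD, n = 3 each). ITGAM fell 3.37-fold from 0.193 ± 0.0256 to 0.0559 ± 0.0162 CPM, on only 4 to 30 reads per library. CD68 rose from 0.135 ± 0.0397 to 0.268 ± 0.0667 CPM, and this call was lost with library size alone. Of the coding bases of CD68, 97.6% are shared on the same strand with AC016876.2. The 10 markers together summed to between 2.75 and 3.03 TPM in DOX-negative libraries, and to between 1.04 and 1.29 TPM in DOX-positive libraries. Of these sums CD14 made up a mean of 2.29 TPM in DOX-negative and 0.555 TPM in DOX-positive libraries. JAK3 alone lay above these sums, and the part of such markers in its value was not tested. IL2RG, the common gamma chain with which JAK3 works, was near 0 as well, at 0.00818 CPM in DOX-negative and 0 CPM in DOX-positive cells. Of the coding bases of IL2RG, 90.0% are shared on the same strand with another annotated gene.

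Within a library JAK1 gained on its partners. Per kilobase JAK1 stood at 1.30, 1.39 and 1.33 times JAK2 in DOX-negative libraries and at 3.34, 3.31 and 3.18 times JAK2 in DOX-positive libraries, a change of 2.44-fold. Relative to TYK2 it went from 1.14, 1.15 and 1.27 to 1.95, 2.06 and 1.99, a change of 1.69-fold. The largest shift of the 6 ratios was that of IFNGR1 to JAK1, the receptor chain to the kinase it carries. It stood at 0.934, 0.955 and 0.954 in DOX-negative libraries and at 0.274, 0.257 and 0.261 in DOX-positive libraries, a fall of 3.59-fold. The ratio of IFNAR1 to IFNAR2 was 1.52-fold higher and that of IFNLR1 to IL10RB 1.31-fold higher with DOX, and both contain a gene that shares exons with AP000295.1. Without DOX-negative replicate 3 the log2 change of the IFNLR1 to IL10RB ratio went from 0.39 to 0.23. None of the 6 ratios overlapped between the groups. For each the exact two-sided permutation p was 0.10, the smallest that 3 against 3 allows, also after adjustment over the 6.

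**Figure D3:**
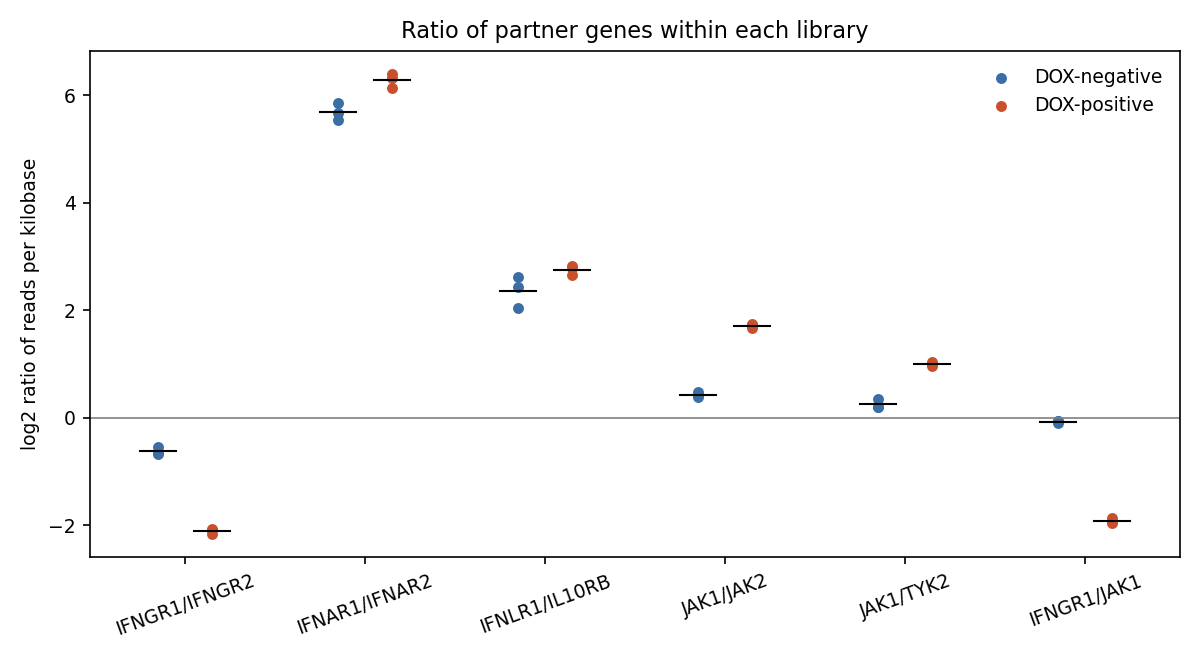
Log2 ratio of 2 partner genes in reads per kilobase (y axis) for the 6 pairs tested, in each of 3 DOX-negative and 3 DOX-positive libraries (points) with the group mean (short line). IFNGR1 falls against IFNGR2 and against JAK1, from -0.62 to -2.10 and from -0.08 to -1.92, and JAK1 rises against JAK2 from 0.42 to 1.71.

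Levels of different genes were compared per length, in TPM. In DOX-negative cells the order was IFNAR1 (81.4 ± 5.44), IFNGR2 (68.8 ± 2.44), JAK1 (47.1 ± 3.21), IFNGR1 (44.6 ± 2.86), TYK2 (39.7 ± 2.41) and JAK2 (35.2 ± 3.48), then JAK3 (7.78 ± 0.262), IFNLR1 (5.98 ± 0.587), IFNAR2 (1.58 ± 0.112) and IL10RB (1.17 ± 0.199 TPM, SD, n = 3). JAK1 and IFNGR1 overlapped, as did IFNGR1 and TYK2, and the other neighbours in this order did not. In DOX-positive cells IFNGR1 dropped from the fourth place to the sixth, at 16.6 ± 0.0352 TPM, behind TYK2 at 31.6 ± 0.513 and JAK2 at 19.3 ± 0.999. JAK1 reached 63.2 ± 2.17 TPM, and IFNAR1 at 76.5 ± 2.72 overlapped IFNGR2 at 71.6 ± 2.46. JAK3 lay at 7.54 ± 0.446, IFNLR1 at 3.58 ± 0.0301, IFNAR2 at 0.980 ± 0.0590 and IL10RB at 0.529 ± 0.0306 TPM. TPM fixes the total in each library, so on this scale IFNAR1 and JAK3 had lower means with DOX while their TMM-scaled CPM were higher. IFNGR2 kept a higher mean with DOX on this scale, but its groups overlapped. The deposited length of JAK1, 12620 bases, is far above its 6317 exon bases in GENCODE 29. With GENCODE 29 lengths JAK1 stood at 93.9 TPM in DOX-negative and 126.2 TPM in DOX-positive cells and ranked 1 of the 10 in both groups. Its place in the order, and the absolute size of its ratios to other genes, therefore depend on the length used. Their change between groups does not.

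**Figure D4:**
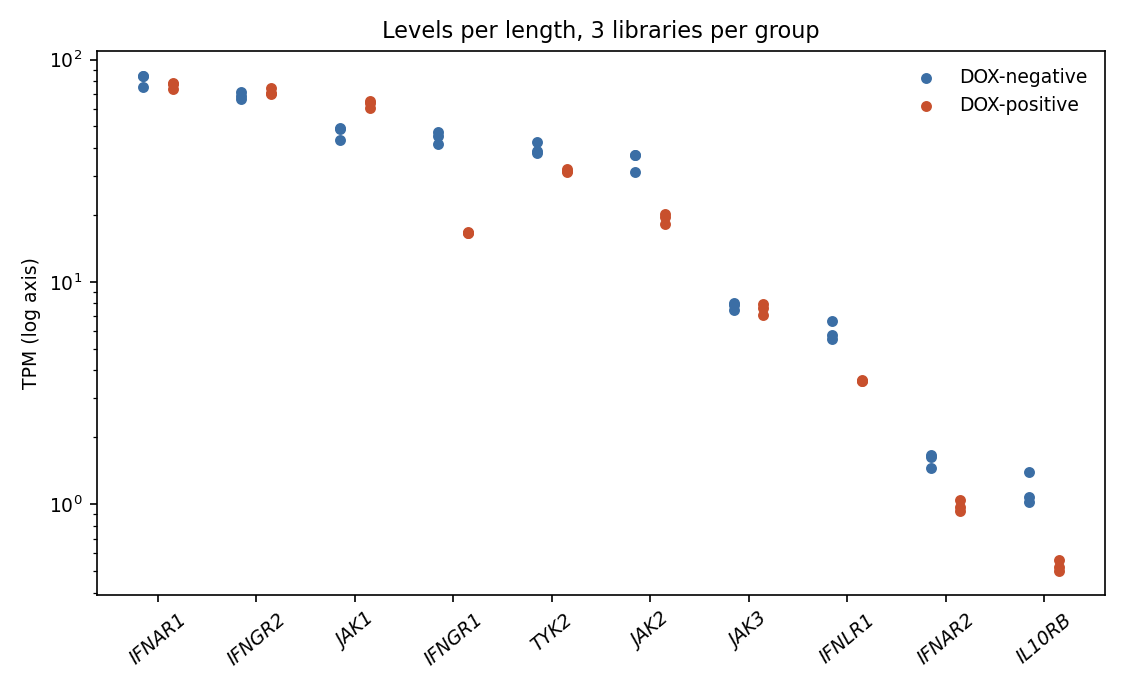
Level per gene length in TPM (log axis) of the 10 genes in 3 DOX-negative and 3 DOX-positive libraries, ordered by the DOX-negative mean with the deposited lengths. IFNGR1 moves from 44.6 to 16.6 TPM, and IFNAR2 and IL10RB lie at or under 1.67 TPM in all libraries.

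Of the 10 genes, 4 lie side by side on chromosome 21, within 249.4 kb, all on the plus strand. From the left, IFNAR2 and IL10RB fell (-0.48 and -0.92 on the log2 scale), and IFNAR1 and IFNGR2 had log2 fold changes of 0.13 and 0.27, with the sign of IFNAR1 turning under library size alone. IL10RB-DT, which faces IL10RB across the 97 bases shown above in capitals, fell by 0.54 (SE 0.20, edgeR adjusted p = 0.0262). At the far end TMEM50B, which lies opposite IFNGR2, fell by 0.38 and DNAJC28 by 0.33 on the log2 scale. The cluster thus held changes of both signs.

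**Figure D5:**
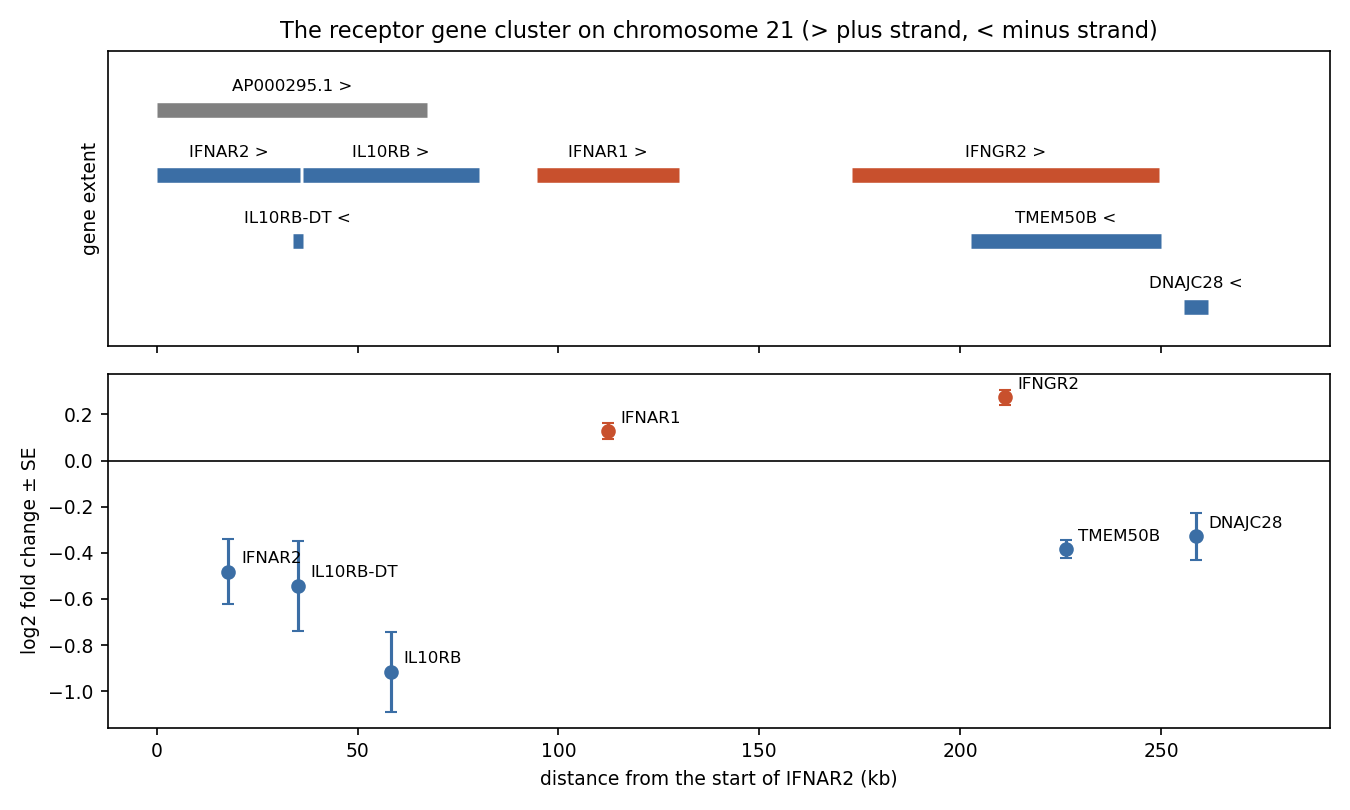
Top, extent of genes around the receptor cluster by distance from the start of IFNAR2 in kb (blue lower, red higher with DOX, grey listed with 0 reads); bottom, log2 fold change ± SE of the same genes at their midpoints. IFNAR2, IL10RB-DT and IL10RB lie between -0.48 and -0.92, IFNAR1 and IFNGR2 at 0.13 (-0.02 with library size alone) and 0.27, and TMEM50B and DNAJC28 at -0.38 and -0.33.

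Around all 10 members the 3 nearest genes tested on each side gave 43 different genes that are not members, of which 12 rose, 18 fell and 13 did not pass. To the left of IFNGR1, MAP3K5, a stress-activated kinase 405.0 kb away, rose from 27.0 to 54.0 CPM. Closer on that side, IL20RA, a receptor chain of the same family as IFNGR1, had -0.42 (edgeR adjusted p = 0.178). PEX7, which lies between them, had 0.07 (edgeR adjusted p = 0.366). The genes flanking JAK1 included CACHD1 (0.50) and AK4 (0.30), which rose, and RAVER2 (-0.29), which fell. To the left of JAK2, AK3 and RCL1 rose by 0.73 and 0.24 on the log2 scale, against the fall of JAK2. IL22RA1, the interleukin-22 receptor chain that partners IL10RB and lies 11.0 kb from IFNLR1, fell by 0.20 (edgeR adjusted p = 0.0174). On chromosome 19, KEAP1 and PDE4A near TYK2 fell by 0.94 and 0.54 on the log2 scale, more than TYK2 itself, and B3GNT3 near JAK3 rose by 2.01.

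Among 9762 genes with a mean of at least 10 CPM, those whose centred log2 CPM over the 6 libraries lay nearest to IFNGR1 by Euclidean distance were SEMA3F (distance 0.0450), MAP3K1 (0.0630) and GLI2 (0.0663), with log2 fold changes of -1.20, -1.24 and -1.20. Those nearest to JAK1 were MBD2 (0.0275), GOLGA4 (0.0299) and PON2 (0.0307), with 0.65, 0.64 and 0.62. With 2 groups of 3 libraries this likeness reflects mostly a fold change of the same size.

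The ligands of these receptors were hardly expressed by the cells. Of 10 interferon genes only IFNA1, IFNE and IFNK passed the filter on low counts. IFNA1, a type I interferon, read 0.483, 0.320 and 0.393 CPM in DOX-negative and 0.598, 0.505 and 0.484 CPM in DOX-positive libraries. The groups did not overlap, by a narrow margin, and the edgeR adjusted p was 0.160. Among the ligands that failed the filter, IFNB1, IFNL1, IFNL2, IFNL3 and IFNW1 also did not overlap and were lower with DOX. For IFNL2 this separation rests on 4, 4 and 2 reads in DOX-negative against 0, 0 and 2 in DOX-positive libraries. For IFNW1 it rests on 2, 5 and 2 against 0, 2 and 0 reads. None of these ligands was tested, and the share of genes this low that do not overlap was not determined. IFNL1, the most abundant of these ligands, averaged 0.189 CPM in DOX-negative and 0.0559 CPM in DOX-positive libraries. IFNE had a log2 fold change of -0.21 (adjusted p = 0.452) and IFNK of -0.28 (adjusted p = 0.709). IFNG had 0 reads in all 6 libraries, and the IFN-gamma added to the cultures is not seen by sequencing RNA. IL10 lay at or near the level of 3 reads, and IL22 and IL26 had 0 reads.

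Of 5 relatives of the class II cytokine receptor family that were tested, 1 rose and 2 fell, and their log2 fold changes had a median of -0.32, where that of all genes tested was -0.04. F3, which encodes tissue factor, averaged 82.0 ± 2.85 CPM without and 280.2 ± 4.12 CPM with DOX, 3.42-fold higher (log2 fold change 1.77, edgeR adjusted p = 7.81e-16). IL20RB, a chain of the interleukin-20 receptors, fell 1.86-fold from 4.51 ± 0.216 to 2.42 ± 0.184 CPM. Of 19 other receptor chains that signal through JAKs, 8 rose, 7 fell and 4 missed the threshold (median -0.03), and 5 rose with upper-quartile scaling and 3 with library size alone. IL6R, the ligand-binding chain of the interleukin-6 receptor, rose 2.27-fold and IL13RA1, a chain of the interleukin-13 receptor, 1.30-fold. The leptin receptor gene LEPR fell 1.67-fold and the growth hormone receptor gene GHR 2.66-fold.

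Downstream, genes of the STAT family moved in both directions. STAT2, the STAT particular to type I and III signalling, fell 1.86-fold from 303.8 ± 5.34 to 163.4 ± 0.890 CPM (SD, n = 3 each). STAT6, known from interleukin-4 signalling, and STAT3, known from interleukin-6 signalling, rose by 0.29 and 0.21 on the log2 scale. IRF9, a partner of STAT2, had -0.72 (edgeR adjusted p = 0.00163) at only 1.63 and 0.993 CPM, and 88.9% of its coding bases are shared with AL136295.5 on the same strand, so its level carries the same limit as IFNAR2.

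Of 18 negative regulators 5 rose, 11 fell and 2 missed the threshold (median -0.17). SOCS1, which binds and inhibits JAK1 and JAK2 and is itself induced by IFN-gamma, fell 2.49-fold from 4.89 ± 0.234 to 1.96 ± 0.185 CPM. SOCS2, an inhibitor of growth hormone signalling, rose 2.08-fold from 28.5 ± 1.85 to 59.3 ± 1.25 CPM. The phosphatase gene PTPN11 rose 1.31-fold, and USP18, which holds JAK1 off IFNAR2, fell 1.33-fold. Of 10 factors of receptor sorting and breakdown, 5 rose, 3 fell and 2 missed the threshold (median 0.15), and 1 fell with DESeq2 size factors. STAM, an endosomal sorting adaptor, rose from 58.5 to 105.3 CPM, its partner HGS 1.25-fold, and the ubiquitin ligase subunits FBXW11 and FBXW7 rose 1.33-fold and 1.34-fold.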

How the data were processed

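Polyadenylated RNA from 6 cultures was sequenced with a strand-specific kit, per the labels' protocols. The authors deposited 1 table of raw read counts per gene and a column of gene lengths in bases, per the file headers. GRCh38.p7, STAR 2.7.9a, CASAVA 1.8.2 and DESeq2 1.24.0 appear, without roles, in the submitters' processing notes. The counter, its annotation, its strand setting and its handling of shared reads were not stated in the sources used here. Groups and replicate numbers came from the sample titles.

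Counts were tested as deposited with edgeR 4.0.16 (R 4.3.3): filterByExpr (min.count 10, min.total.count 15), TMM, the quasi-likelihood test with group as the only term, and Benjamini-Hochberg adjustment over 24695 genes at 0.05. Standard errors are the absolute log2 fold change over the square root of F. Ratios used counts plus 0.5. Alternatives were other scalings and filters, limma-voom (limma 3.58.1), a DESeq2 1.42.0 Wald test, a replicate block and each library left out. Chi-square per degree of freedom was at least 6.40 between replicates, so none were 1 library deposited again. GENCODE 29 gave positions for 58489 gene IDs. Figures used matplotlib 3.10.9.

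Members and lists were chosen with earlier results of these data known. The text names all members, MUC1, up to 4 genes per list by smallest p-value, neighbours on the chromosome and the 3 genes most like the leading member in each direction. Sequences were those of IFNGR1 and IL10RB, the latter picked after its values were seen, as were the neighbours singled out, IRF9 and IL2RG. Counts over the STAT genes are not reported here.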

Additional observations from a re-analysis of the deposited data

How the results depend on the processing

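Of 140 log2 fold changes recomputed for the 10 genes, 131 kept their direction and their side of the threshold, among them all of IFNGR1 (-1.35 to -1.15), JAK1 (0.50 to 0.69), JAK2 (-0.79 to -0.59), IL10RB, IFNLR1, IFNAR2 and IFNGR2. Upper-quartile scaling gave 2 members higher, with IFNAR1 at 0.0677 and JAK3 at 0.11, and library size alone also gave 2, with IFNAR1 reversed at -0.0160 and JAK3 at 0.0298. TYK2 lost its call with DESeq2 size factors (-0.0866) and the DESeq2 Wald test (-0.0865). With 1 library left out TYK2 ranged from -0.12 to -0.0691 and JAK3 from 0.15 to 0.23, members higher from 3 to 4 and members lower from 5 to 6. The 6 within-library ratios kept their direction in each of 42 alternatives, which says little about how firm the directions are. None of the ratios overlapped between the groups, so leaving out 1 library could not turn a direction. The 0.5 added is small beside the counts. Sizes could move, and IFNLR1 to IL10RB ranged from 0.23 to 0.52 with 1 library left out. With GENCODE 29 lengths, chosen after seeing the data, JAK1 ranked 1 in both groups. Other JAK receptor chains that rose numbered 5 with upper-quartile scaling and 3 with library size alone, and sorting factors that fell numbered 1 with DESeq2 size factors. These list alternatives were also chosen after seeing the data.

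Same-numbered libraries did not deviate together (r = -0.07, -0.03 and 0.01 across genes). With 3 libraries per group this cannot tell whether the cultures were paired by number, because paired cultures need not share a deviation. With the replicate block 6670 genes were higher and 6833 lower, with 4 members higher and 6 lower, and no member's call changed. Low counts limit IFNAR2 and IL10RB, with at most 308 and 191 reads per library, and why they were low was not tested.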
